A study of Mus musculus with 11 samples.

Results

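The genes described are 10 that write, copy, oxidise, remove or are named for DNA methylation: Dnmt1, Dnmt3a, Dnmt3b, Dnmt3l, Uhrf1, Tet1, Tet2, Tet3, Tdg and Mbd3. They were taken by symbol from the deposited table of 22369 mouse genes, and all 10 were found and reached the minimum average of 1 CPM, counts scaled to library size. The samples were 11 clonal mouse embryonic stem cell lines, numbered 16 to 26, with 1 messenger RNA library per clone. All descend from EBRTcH3 cells, which make a tetracycline-controlled transactivator from ROSA26, and all carry several piggyBac reporters driven by the mouse PGK promoter. Each clone grew from a single colony of cells sorted for high eGFP, in conditioned medium with leukemia inhibitory factor, the MEK inhibitor PD0325901 and the GSK-3 inhibitor CHIR99021. There was no treated and no untreated group, so the comparisons are between clones. A clone has 1 library, so its own biological spread was not measured.

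Methylation of cytosine in CG dinucleotides is copied to the new DNA strand by Dnmt1, which Uhrf1 brings to half-methylated sites. Dnmt3a and Dnmt3b methylate new sites, and Dnmt3l is a partner of these enzymes that has no catalytic activity of its own. The Tet enzymes oxidise methylcytosine, and the glycosylase Tdg cuts out the oxidised bases. Mbd3 belongs to the methyl-CpG-binding domain family and is a subunit of the NuRD chromatin remodelling complex. Mouse embryonic stem cells held with inhibitors of MEK and GSK-3 are known for low DNA methylation, but methylation itself was not measured here.

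The libraries held 10846005 to 16868500 counts in genes. The markers of embryonic stem cells were high in every clone (8 of 8 tested, 6310 to 8190 CPM summed). Of the defining markers of primitive endoderm, trophoblast and fibroblasts, the summed levels were 3.97 to 8.38, 3.57 to 16.5 and 2.62 to 9.45 CPM. Those of the primed epiblast summed to 12.7 to 56.6 CPM and those of neural cells to 48.6 to 121 CPM. Pou3f1 of the first list and Sox1 of the second were not found by symbol. Most of the first sum was Otx2 (mean 36.2 CPM), and most of the second was Tubb3 (49.6) and Nes (25.8). In these lists Otx2, Sox3, Pax6, Tubb3 and Nes varied between clones, as did Col1a1 of the fibroblast list (0.350 to 4.50 CPM). What part of the differences below goes with such markers was not tested. The libraries of clones 20 and 23 were the most alike, with a chi-square per degree of freedom of 5.08 against 14.8 to 77.6 for the other 54 pairs of libraries. This is still above sampling noise, which gives about 1, so both were kept. The value does not tell whether clones 20 and 23 arose independently, and n = 11 counts them as separate clones.

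Uhrf1 and Dnmt3l had the highest levels per length of the 10 genes, and Tet3 the lowest. Per kilobase of annotated exons, Uhrf1 averaged 185 ± 31.9 CPM and Dnmt3l 165 ± 52.9 (SD, n = 11 clones for all means). Dnmt1 followed at 83.8 ± 10.2, Tet1 at 73.8 ± 11.2, Mbd3 at 58.3 ± 4.92 and Tet2 at 53.0 ± 20.4 CPM per kilobase. The catalytic de novo enzymes were lower, with Dnmt3b at 27.2 ± 3.47 and Dnmt3a at 10.6 ± 2.05. Tdg stood at 8.09 ± 1.52 and Tet3 at 1.51 ± 0.596 CPM per kilobase. Some neighbours in this order, such as Uhrf1 with Dnmt3l and Dnmt1 with Tet1, overlap in their ranges over clones. Such ranges do not give the order of genes within a clone, which was not compared here. With the length of the longest transcript in place of all exons Dnmt3l came first, at 241 against 189 CPM per kilobase for Uhrf1. The counts do not tell isoforms apart, such as the forms of Dnmt3a that start at different promoters. The labels do not say whether counting used strand: Aire overlaps Dnmt3l, and Glt8d2 overlaps Tdg, each on the opposite strand.

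**Figure D1:**
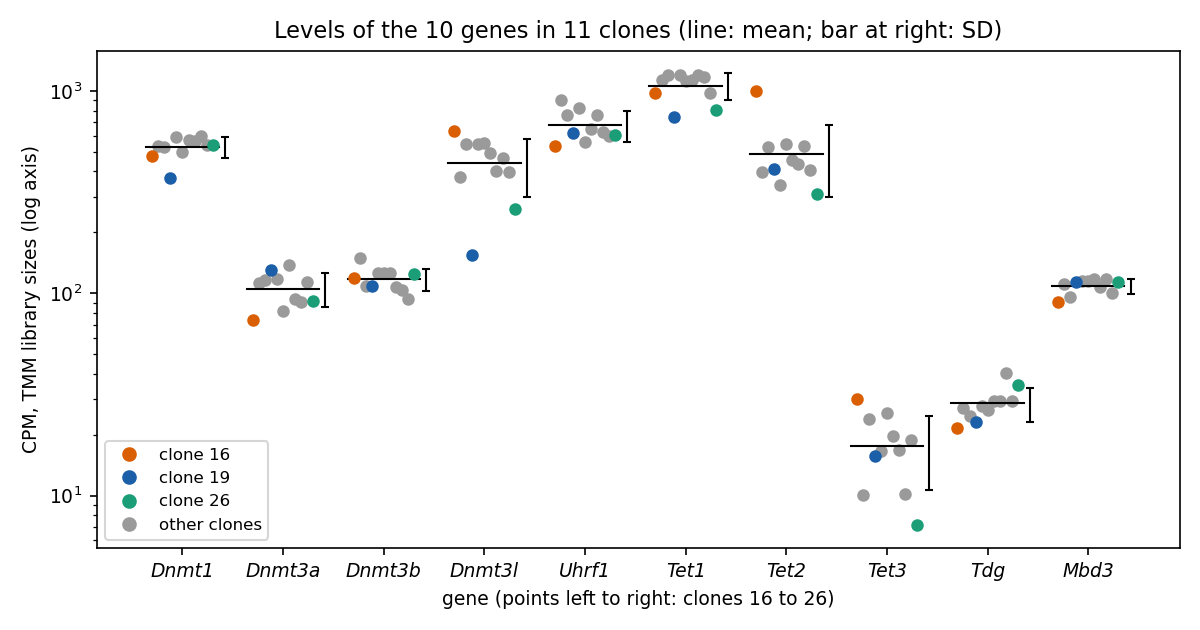
Levels of the 10 genes in each of the 11 clones, in CPM on a logarithmic axis, with 1 point per library in clone order, the mean as a line and the SD as a bar. Dnmt3l is lowest in clone 19 (blue, 154 CPM) and clone 26 (green, 261), and Tet2 is highest in clone 16 (orange, 1005).

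The first question was which of these genes spread more between clones than other genes of like abundance. Dnmt3l and Tet2 did: 2 of the 10 were past the threshold of edgeR's goodness-of-fit test, at a Benjamini-Hochberg adjusted p of 0.05, against 7.68% of the 12479 genes tested. At an unadjusted p under 0.05 there were 3, the third being Tet3, against 13.1% of all genes. With the dispersion trend of DESeq2 the count was also 3, against 8.26% of all genes. Against counting noise alone all 10 passed, as did 95.4% of all genes. The median SD over the 10 genes was 0.25 on the log2 scale, and it was 0.24 over all tested genes. In Dnmt3l, Tet2 and Tet3 the highest clone was at least 2 times the lowest, which held for 41.8% of all genes. With 10 genes, these counts are too small to set the group apart from other genes.

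**Figure D2:**
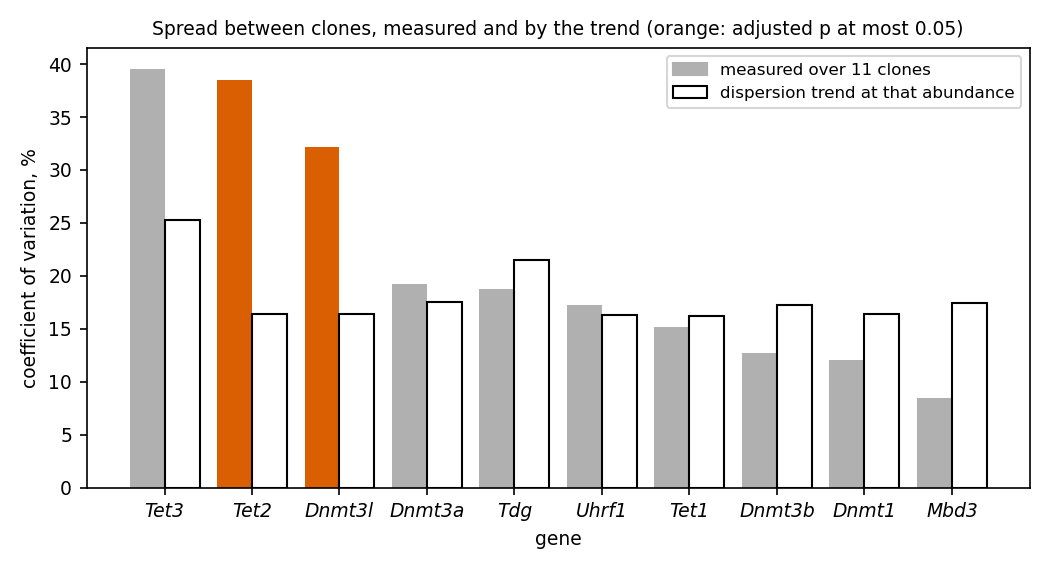
Coefficient of variation over the 11 clones for each gene (filled bars, in percent) beside the value that the dispersion trend gives at that gene's abundance (open bars). Dnmt3l (32.2% against 16.4%) and Tet2 (38.5% against 16.4%) passed the test, and Tet3 (39.6% against 25.3%) was near its threshold.

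Dnmt3l (ENSMUSG00000000730, chromosome 10), the non-catalytic partner, had its lowest levels in clone 19 (154 CPM) and clone 26 (261 CPM). In the other 9 clones it ran from 376 to 638 CPM: 638 in clone 16, 376 in 17, 544 in 18, 549 in 20, 555 in 21, 492 in 22, 403 in 23, 467 in 24 and 397 in 25. Clones 19 and 26 thus lay below all others. With exact Poisson 95% intervals, which cover counting error only, 4 of the 10 neighbouring pairs in the order of clones overlapped: clones 21 and 20, 20 and 18, 23 and 25, and 25 and 17. Over all clones Dnmt3l averaged 439 ± 141 CPM (SD, n = 11), and its adjusted p in the edgeR goodness-of-fit test was 5.69e-06. The spread rested on the low clones: the adjusted p by edgeR was 0.0463 without clone 19 and 0.877 without clones 19 and 26, a choice made after seeing the data. Neighbouring genes did not move with it, since the 24 nearest expressed genes had a median shift of 0.08 in clone 19 and -0.08 in clone 26 on the log2 scale, against -1.59 and -0.84 for Dnmt3l.

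The genes whose pattern over the clones was most like that of Dnmt3l were Dusp6, Spry4 and Manba, out of 10273 genes that averaged 5 CPM or more. Dusp6 encodes a phosphatase of ERK, and it lies on chromosome 10 as Dnmt3l does. Clone 19 had 10.5 CPM of it and clone 26 had 27.3, while the other 9 had 70.8 to 136 (Pearson's r = 0.98, Spearman's rho = 0.95, n = 11). Spry4, whose product dampens growth factor signalling, had 4.68 CPM in clone 19 and 21.4 in clone 26, while the other 9 had 51.6 to 134.5 (r = 0.97, rho = 0.84). Manba, which encodes beta-mannosidase, had r = 0.94, with 58.0 CPM in clone 19 and 156 in clone 26, below the 229 to 414 of the rest. All of these genes were lowest in the same clones as Dnmt3l. Without clones 19 and 26, r was 0.94 for Dusp6, 0.82 for Spry4 and 0.61 for Manba over 9 clones. The genes most unlike it were Mtmr12 (r = -0.95), Copz2 (r = -0.94) and Urgcp (r = -0.92), with -0.86, -0.77 and -0.65 without these clones. Since these genes were picked as the extremes of a ranking, r is given as a description with no test.

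**Figure D3:**
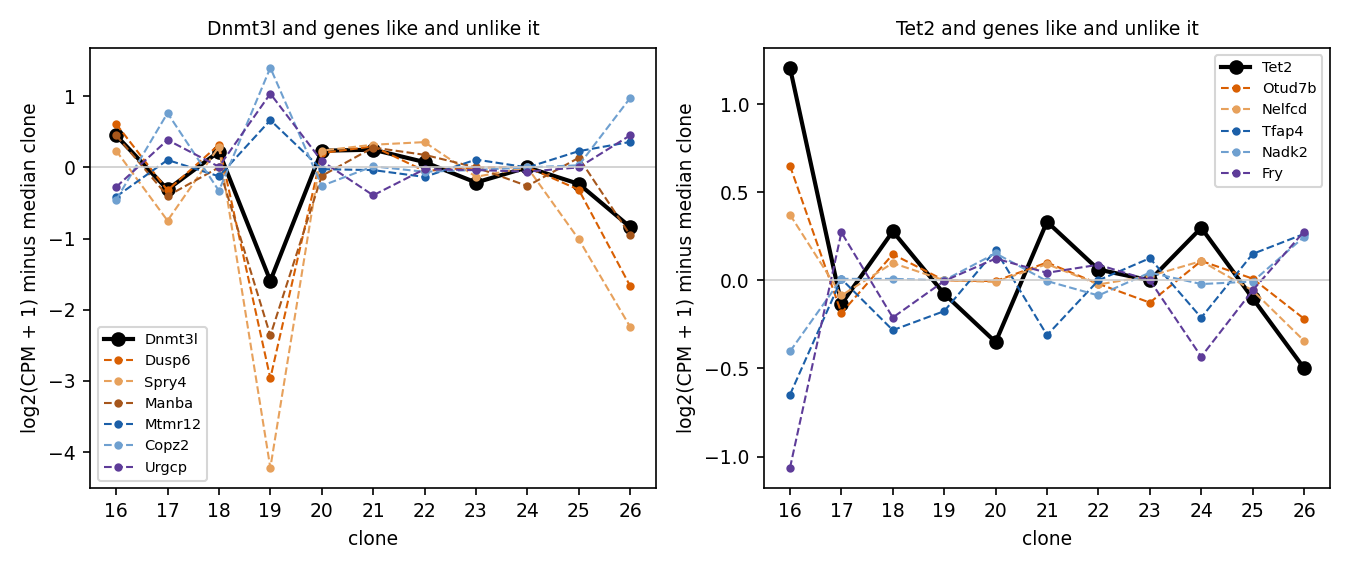
Level of Dnmt3l (left) and Tet2 (right) in each clone (black), with the genes named in the text as most like it (orange and brown shades, dashed) and most unlike it (blue and purple, dashed), as log2(CPM + 1) minus the median clone. Dnmt3l, Dusp6, Spry4 and Manba dip together in clones 19 and 26, and the Tet2 pattern is led by clone 16.

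Dppa3, known in the mouse zygote for shielding the maternal genome from Tet3-driven oxidation and in the oocyte for limiting methylation through Uhrf1, was highest in the clones where Dnmt3l was lowest. Its level was 23.3 CPM for clone 19 and 5.18 for clone 26, while the other 9 had 0.136 to 3.50, and it varied between clones (adjusted p = 1.10e-23 by the edgeR goodness-of-fit test). The lower end of this range lies under the floor of 3 counts, 0.173 to 0.284 CPM by library. Dppa3 comes from a list of regulators given further on.

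Tet2 (ENSMUSG00000040943, chromosome 3), the 5-methylcytosine dioxygenase with the uneven level, stood at 1005 CPM in clone 16. In the other 10 clones it ran from 308 to 548 CPM: 396 in clone 17, 528 in 18, 413 in 19, 341 in 20, 548 in 21, 454 in 22, 435 in 23, 535 in 24, 406 in 25 and 308 in 26. Clone 16 alone stood far above the rest. Counting intervals overlapped for 5 of 10 neighbouring pairs, and clone 16 was separated from clone 21, the next. The mean was 488 ± 188 CPM (SD, n = 11), with an adjusted p of 0.000294 in the edgeR goodness-of-fit test and of 0.919 without clone 16. In that clone the other genes of chromosome 3 were higher as well, with a median log2 shift of 0.56 over 462 genes and of 0.57 over the 24 nearest. Tet2 was higher by 1.21 than in the median clone, more than its chromosome was. The part of the chromosome in the Tet2 level was not tested. Clone 16 also had the smallest library, of 10846005 counts.

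Among the 3 genes most like Tet2 over the clones were Otud7b (r = 0.93), which also lies on chromosome 3, and Nelfcd (r = 0.92), which encodes a subunit of the negative elongation factor. Both were highest in clone 16, Otud7b at 106 CPM against at most 74.6 in the other clones and Nelfcd at 110.4 CPM against at most 91.8. The bHLH factor gene Tfap4 (r = -0.93), Nadk2 (r = -0.92), a mitochondrial NAD kinase gene, and Fry (r = -0.91) ran opposite. Without clones 16 and 26, the farthest from the median in Tet2, r was 0.65 for Otud7b and 0.81 for Nelfcd over 9 clones, and -0.83, -0.58 and -0.63 for Tfap4, Nadk2 and Fry. These genes too were picked from a ranking of 10273 genes, with no test.

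Tet3, the least abundant of the oxidising enzymes, was lowest in clone 26 (7.14 CPM) and highest in clone 16 (29.97 CPM). It stood at 10.0 and 10.2 CPM in clones 17 and 24, at 15.7 to 19.7 in clones 19, 20, 22, 23 and 25, and at 23.95 and 25.6 in clones 18 and 21. With 102 to 376 counts per library, neighbouring clones mostly overlapped in their counting intervals (9 of 10 pairs). The mean was 17.7 ± 6.995 CPM (SD, n = 11). The adjusted p of 0.0530 by edgeR missed the threshold, and it was 0.0131 with the dispersion trend of DESeq2 0.0177 with the genes of shifted segments left out, and 0.0104, 0.0427 and 0.0480 without clone 19, 22 or 25. With any other clone left out it stayed above 0.05, from 0.0512 without clone 17 to 0.381 without clone 26. Tet1, the most abundant of the oxidising enzymes, did not pass, at 1061 ± 161 CPM. It was lowest in clone 19 (744 CPM) and clone 26 (809) and ran from 979 to 1201 in the other 9. These are the clones singled out by the Dnmt3l level. The share of all genes with both clones below the rest was not counted, so the likeness to Dnmt3l is only described.

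The maintenance genes did not pass the test either. Dnmt1 averaged 528 ± 63.9 CPM (SD, n = 11), with 370 CPM in clone 19 and 476 to 597 elsewhere. Uhrf1 averaged 677 ± 117 CPM, with 533 in clone 16 and 901 in clone 17 at the ends of a 1.69-fold range. Its coefficient of variation of 17.3% was close to the 16.3% that the trend gives. The catalytic de novo genes did not pass. Dnmt3a, with a coefficient of variation of 19.3% against 17.5% for the trend, was lowest in clone 16 (73.8 CPM) and highest in clone 22 (138), with a mean of 106 ± 20.3 CPM. Dnmt3b was lowest in clone 25 (94.2) and highest in clone 17 (149), with a median of 119 CPM. Their order over the clones differed from that of Dnmt3l: Dnmt3a was at 130 CPM, its second highest level, in the clone where Dnmt3l was lowest.

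Tdg and Mbd3 did not pass the test. Tdg averaged 28.6 ± 5.36 CPM, from 21.5 in clone 16 to 40.2 in clone 24, and Mbd3 108.9 ± 9.20, from 90.3 in clone 16 to 118 in clone 22. Neither had a neighbouring pair of clones whose counting intervals were apart. The coefficient of variation of Mbd3, 8.44%, was the smallest of the 10 and below the 17.4% of the trend. In SD of the log2 level Mbd3 exceeded 12.9% of tested genes, while Dnmt3l exceeded 92.7% and Tet3 92.8%. These values are descriptive.

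The starts of the 2 genes that varied differ in sequence, so they are shown with those of a paralogue or partner of each that did not pass. Each line is a RefSeq window of 300 bases, 250 before and 50 after an annotated start, on GRCm38.p6, 5′ to 3′ on the gene's own strand, with every CG in capitals. The most upstream of the 3 annotated Dnmt3l windows lies at chr10:78042037-78042336 (plus strand), Dnmt3b at chr2:153649199-153649498 (plus), Tet2 at chr3:133544341-133544640 (minus) and Tet1 at chr10:62887275-62887574 (minus).
Dnmt3l: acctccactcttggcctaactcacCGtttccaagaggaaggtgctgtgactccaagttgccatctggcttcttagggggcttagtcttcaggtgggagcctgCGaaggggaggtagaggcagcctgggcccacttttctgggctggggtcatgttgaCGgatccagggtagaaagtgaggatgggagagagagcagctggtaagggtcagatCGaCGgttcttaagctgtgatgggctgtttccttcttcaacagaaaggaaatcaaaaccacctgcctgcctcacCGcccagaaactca
Dnmt3b: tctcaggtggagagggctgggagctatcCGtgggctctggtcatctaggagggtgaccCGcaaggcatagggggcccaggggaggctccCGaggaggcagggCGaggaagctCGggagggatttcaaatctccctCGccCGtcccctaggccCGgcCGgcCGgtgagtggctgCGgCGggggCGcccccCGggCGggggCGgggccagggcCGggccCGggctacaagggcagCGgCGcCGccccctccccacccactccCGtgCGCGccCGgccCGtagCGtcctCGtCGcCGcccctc
Tet2: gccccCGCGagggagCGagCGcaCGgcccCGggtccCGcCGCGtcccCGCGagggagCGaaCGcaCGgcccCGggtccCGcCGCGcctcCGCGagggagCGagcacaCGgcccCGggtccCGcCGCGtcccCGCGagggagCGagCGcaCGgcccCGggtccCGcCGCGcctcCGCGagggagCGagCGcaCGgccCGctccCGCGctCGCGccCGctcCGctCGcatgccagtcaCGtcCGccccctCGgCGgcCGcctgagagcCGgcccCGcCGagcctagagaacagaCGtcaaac
Tet1: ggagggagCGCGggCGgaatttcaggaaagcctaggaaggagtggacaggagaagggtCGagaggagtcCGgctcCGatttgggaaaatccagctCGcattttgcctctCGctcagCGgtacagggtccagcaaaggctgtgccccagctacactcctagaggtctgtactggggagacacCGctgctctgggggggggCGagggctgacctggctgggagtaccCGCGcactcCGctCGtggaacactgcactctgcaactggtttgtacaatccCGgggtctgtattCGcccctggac
The Dnmt3l window holds 6 CG, and 43.6% of 32851 windows hold fewer, with a median of 7. Its other windows hold 4 and 3. The Tet2 window holds 57, more than 99.8% of windows, while Dnmt3b holds 30 and Tet1 17. The files do not tell which start was used.

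All 17 windows of the 10 genes were searched on both strands for 6 further motifs. CACGTG, the E-box, was in 3 windows (1 each of Dnmt3a, Dnmt3l and Tdg) and in 7.15% of all windows. CCGGAA, the core bound by ETS factors, was in 1 window of Uhrf1 and in 14.9% of all, and TATAAA in that of Mbd3 and in 13.6% of all. The Esrrb motif TCAAGGTCA, the octamer ATTTGCAT and the STAT motif TTCCNGGAA were in none of the 17, and in 0.423%, 1.74% and 1.15% of all windows. CACGTG and CCGGAA contain a CG. These are matches of letters and not measured sites.

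The next question was how maintenance, de novo and oxidising genes were balanced within a clone. Levels per exon kilobase were summed for maintenance (Dnmt1, Uhrf1), de novo (Dnmt3a, Dnmt3b, Dnmt3l) and oxidising genes (Tet1, Tet2, Tet3). Maintenance genes made up 45.3 ± 6.42% of the sum of the 3 classes, de novo genes 33.3 ± 5.28% and oxidising genes 21.4 ± 2.44% (SD, n = 11). The maintenance share ran from 32.8% in clone 16 to 54.1% in clone 19. The de novo share ran the other way, from 22.7% in clone 19 to 40.6% in clone 16. Shares are parts of the same sum and cannot move independently, so this opposite course is no separate result. The oxidising share was lowest in clone 20 (17.8%) and highest in clone 16 (26.7%).

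Maintenance over de novo had a median of 0.36 on the log2 scale, with -0.31 in clone 16, -0.08 in clone 21 and 0.24 to 1.25 in the other 9, the highest being clone 19. With the length of the longest transcript the median was -0.06, so the direction between these classes depends on the length used. Dnmt3l made up 79.6 ± 7.83% of the de novo sum (60.1% for clone 19, 87.2% for clone 16). With Dnmt3l left out, a choice made after seeing the data, the ratio was 2.58 to 3.11 with an SD of 0.18, against an SD of 0.44 with it. Clone 19, the highest with Dnmt3l, was then the lowest, and clone 23 was the highest. Oxidising over de novo had a median of -0.61, from -1.01 in clone 20 to 0.03 in clone 19, and its sign turned without Dnmt3l (1.25 to 2.36) or with CPM not divided by length (median 1.24). Oxidising over maintenance ran from -1.47 in clone 26 to -0.30 in clone 16, with a median of -1.13, and 0.32 with CPM not divided by length. Ratios between classes thus depend on length scaling. Their order over clones compares the same genes, but length also sets the weight of each gene in a sum. Whether the order holds under other scalings was not tested. Without Dnmt3l, oxidising over de novo was lowest in clone 26 and highest in clone 16, in place of clones 20 and 19. Within the oxidising class Tet1 made up 58.3 ± 7.996%, Tet2 40.5 ± 7.86% and Tet3 1.16 ± 0.342% (SD, n = 11), and in clone 16 Tet2 exceeded Tet1, with 60.7% against 37.9%.

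**Figure D4:**
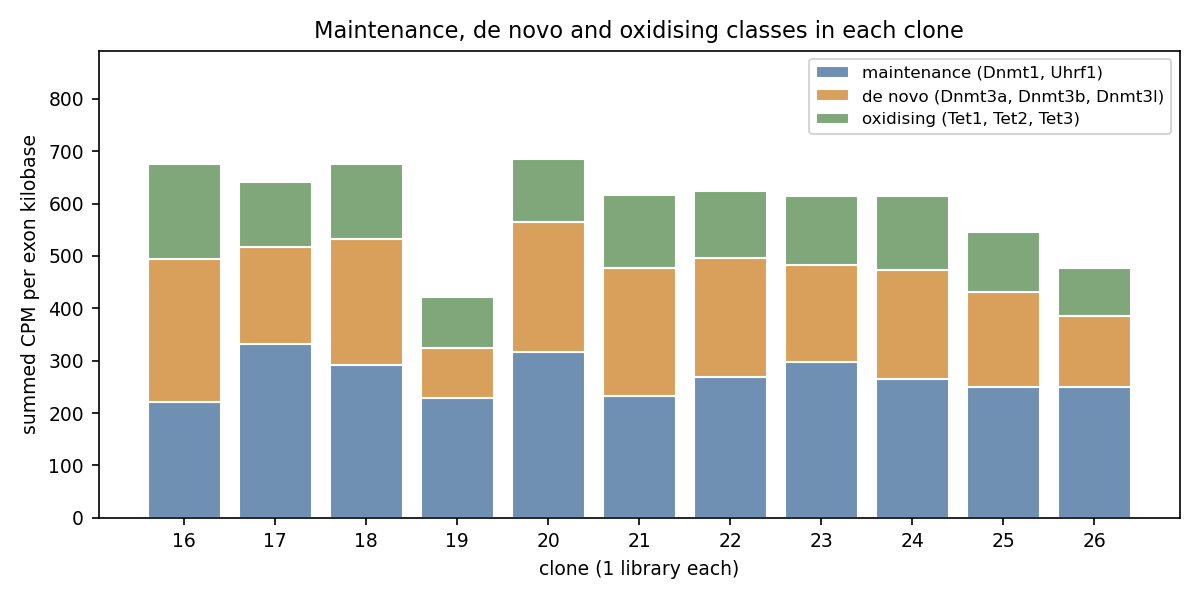
Summed level per exon kilobase of maintenance, de novo and oxidising genes in each clone (stacked bars, CPM per kilobase, 1 library each). The de novo part is smallest in clone 19 (96.0) and largest in clone 16 (274), and the oxidising part is largest in clone 16 (180).

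Each clone was then set against the remaining 10 clones. With edgeR's quasi-likelihood test, 0 of 110 pairs of gene and clone passed at an adjusted p of 0.05, against 0.105% of all pairs higher and 0.109% lower, or 0.213% in either direction. At an unadjusted p under 0.05 there were 10 pairs, 1 for each gene, or 9.09% against 5.92% of all pairs. The DESeq2 Wald test called 3 pairs, against 1.05% of all pairs. These were Tet2 in clone 16, Dnmt3l in clone 19 and Dnmt1 in clone 19. Each such call sets 1 library against the spread of 10 others.

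Tet2 stood at 1005 CPM in clone 16 against 436 ± 81.4 (SD, n = 10) in the others, a log2 fold change of 1.20 ± 0.23 (SE, edgeR, adjusted p = 0.0706). Dnmt3l stood at 154 CPM in clone 19 against 468 ± 110.5 in the others, -1.60 ± 0.39 (adjusted p = 0.184 by edgeR, 0.0443 without clone 26). Dnmt1 stood at 370 CPM in clone 19 against 544 ± 38.3 in the others, -0.56 ± 0.13 (adjusted p = 0.170 by edgeR). By DESeq2 the adjusted p was 0.00340, 0.00120 and 0.00168 for these pairs. The other unadjusted pairs were Tet1 in clone 19, Tdg in clone 24, Tet3 in clone 26, Dnmt3b and Uhrf1 in clone 17, and Dnmt3a and Mbd3 in clone 16. Clone 16 held the lowest level of 4 of the 10 genes and the highest of 3, and clone 19 the lowest of 3. How often these clones held the extreme over all genes was not counted, so this is not read as a trait of the 10 genes. The summed level of the 10 genes was 2694 CPM for clone 19 and 2891 for clone 26, below the 3282 to 3965 of the rest.

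The third question was whether the genes rise and fall together over the clones. Of the 45 pairs of genes 25 had a positive Pearson's r of log2(CPM + 1), and 0 passed at an adjusted p of 0.05 (permutation test, two-sided, 100000 resamples, Benjamini-Hochberg over 45 pairs). By Spearman's rho 0 passed as well, and 6 pairs had an unadjusted p under 0.05 by r. The smallest adjusted p was 0.231. The strongest pair was Dnmt3l with Tet1, at r = 0.80 (permutation p = 0.00873, adjusted 0.231) and rho = 0.36 (permutation p = 0.274, adjusted 0.700). Without clones 19 and 26, the farthest from the median in Dnmt3l, r was -0.10 over 9 clones, so this relation rests on them.

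Dnmt1 with Tet1 had r = 0.73 and rho = 0.63 (permutation p = 0.0154 and 0.0436, adjusted 0.231 and 0.327), and r = 0.28 without clones 16 and 19. Tet2 with Tet3 had r = 0.67 and rho = 0.74 (permutation p = 0.0208 and 0.0127, adjusted 0.234 and 0.146), and 0.28 without clones 16 and 26. Tet3 with Tdg ran opposite, at r = -0.71 and rho = -0.55 (permutation p = 0.0149 and 0.0881, adjusted 0.231 and 0.566), and -0.49 without clones 16 and 26. Dnmt1 with Tdg had r = 0.65 and rho = 0.80 (permutation p = 0.0347 and 0.00483, adjusted 0.312 and 0.136), and 0.54 without clones 16 and 19. Tet2 with Mbd3 had r = -0.63 but rho = -0.07 (permutation p = 0.0423 and 0.841, adjusted 0.318 and 0.990), and -0.07 without clones 16 and 26. These 6 relations by r were all smaller without the clones named. By rho 6 pairs had an unadjusted p under 0.05, 3 of them already given. The others were Dnmt3l with Tet3, Dnmt3l with Tet2 and Uhrf1 with Tet1. Dnmt3l with Tet3 had rho = 0.78 and r = 0.53 (permutation p = 0.00606 and 0.0943, adjusted 0.136 and 0.386), and r = 0.70 without clones 19 and 26. Dnmt3l with Tet2 had rho = 0.66 and r = 0.52 (permutation p = 0.0343 and 0.111, adjusted 0.309 and 0.403), and r = 0.63 without these clones. Uhrf1 with Tet1 had rho = 0.74 and r = 0.50 (permutation p = 0.0130 and 0.116, adjusted 0.146 and 0.403), and r = 0.44 without clones 17 and 20. Between Dnmt3a and Dnmt3b r was -0.01, and between Dnmt1 and its partner Uhrf1 it was 0.36. Dnmt3l, Tet1, Tdg and Mbd3 all lie on chromosome 10, whose median shift was within 0.01 of 0 in clones 16, 19 and 26.

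**Figure D5:**
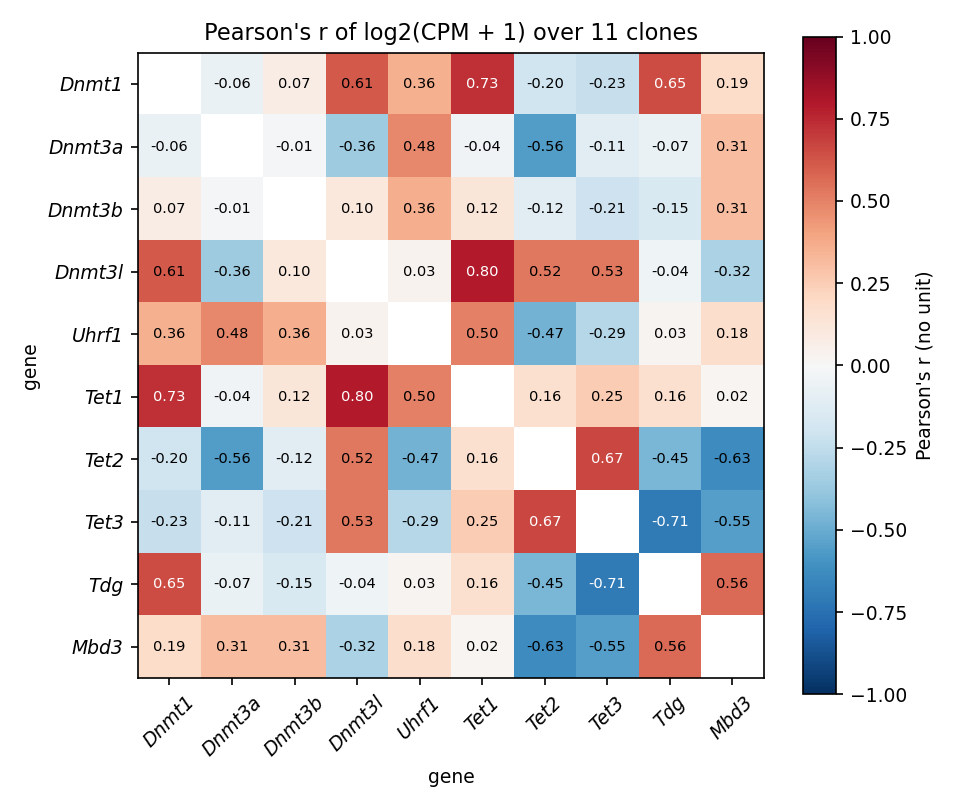
Pearson's r of log2(CPM + 1) over the 11 clones for each pair of the 10 genes (red positive, blue negative). The strongest is Dnmt3l with Tet1 (0.80), and 0 of 45 pairs passed after adjustment.

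Other genes of the pathway were read from lists chosen with earlier results of these data known. Their counts stand beside the 7.68% of all tested genes called by the edgeR goodness-of-fit test, 13.1% at an unadjusted p and 8.26% with the DESeq2 trend. Of 19 cofactors and regulators of DNA methylation 1, Dppa3, varied between clones (3 unadjusted, 1 with the DESeq2 trend), a share near that of all genes. Its most abundant members, Trim28 (1794 ± 136 CPM), the deubiquitinase gene Usp7 (737 ± 88.8) and the imprint guardian Zfp57 (536 ± 99.7), did not pass (SD, n = 11). In single clones the edgeR quasi-likelihood test called the histone methyltransferase gene Setdb1, at 357 CPM in clone 16 against 212 ± 19.06 in the others (0.75 ± 0.13, SE, adjusted p = 0.0479). It also called the histone demethylase gene Kdm1a, at 138.5 CPM in clone 19 against 303 ± 25.9 (-1.13 ± 0.15, adjusted p = 0.0135). Both lie in chromosome segments shifted as a whole in that clone. A further list of 10 held methyl-CpG readers and other members of the methyl-CpG-binding domain family. Of these 0 varied by edgeR (0 unadjusted, 0 with the DESeq2 trend), too few genes to tell from the 7.68% of all genes. Among them Mbd6 was at 113 ± 12.4 and Zbtb38 at 103 ± 21.7 CPM.

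Of 13 NuRD partners of Mbd3, 0 varied by edgeR (1 unadjusted, 0 with the DESeq2 trend), beside 7.68%, 13.1% and 8.26% of all genes, with the remodelling ATPase gene Chd4 at 651 ± 79.8, Sall4 at 503 ± 50.4 and the histone-binding gene Rbbp4 at 481 ± 39.7 CPM (SD, n = 11). Mta2 was at 291 CPM in clone 17 against 186 ± 10.2 in the others (0.65 ± 0.10, SE, adjusted p = 0.0298 by the edgeR quasi-likelihood test), in a segment shifted in that clone. Of 17 tested base excision and demethylation partners 2 varied (2 unadjusted, 2 with the DESeq2 trend), beside 7.68% of all genes. These were the stress genes Gadd45a, at 11.3 to 56.2 CPM with the highest level in clone 16, and Gadd45b, at 7.48 to 32.9 CPM with the highest in clone 19. Parp1 (915 ± 92.4 CPM), the O-GlcNAc transferase gene Ogt (584.5 ± 65.4) and the uracil glycosylase gene Ung (168 ± 21.5) did not pass.

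In the list for S-adenosylmethionine and one-carbon supply 1 of 16 varied (2 unadjusted, 1 with the DESeq2 trend), near the 7.68% of all genes. This was Gldc, the glycine decarboxylase gene, at 630 CPM in clone 17 and 118 to 365 in the others, a gene of a chromosome segment that shifted as a whole in some clone. Gldc lies on chromosome 19, as does Mta2, whose segment was shifted in clone 17. The part of the chromosome in the Gldc level was not tested. Shmt2 (510 ± 106 CPM) and Mthfd1 (263 ± 32.7) did not pass. In the list for 2-oxoglutarate, the cosubstrate of the Tet enzymes, 1 of 14 varied (3 unadjusted, 1 with the DESeq2 trend), again near 7.68%. It was D2hgdh, at 2.52 to 16.98 CPM and also in such a segment, while Glud1 (636 ± 114), Psat1 (404 ± 52.0) and Got1 (308 ± 33.5) did not pass. Of 12 tested germline genes whose promoters are known to be silenced by methylation, 5 varied between clones (7 unadjusted, 6 with the DESeq2 trend), beside 7.68% of all genes. These were Dazl, Tuba3a, Sohlh2, Stk31 and Hormad1. Sohlh2 and Hormad1 lie on chromosome 3, in segments shifted in some clone. In clone 16, where that chromosome was higher, Sohlh2 stood at 17.1 CPM and Hormad1 at 12.2. The part of the segments in their spread was not tested. The meiotic gene Sycp3 was at 27.8 CPM in clone 24 against 7.87 ± 1.93 in the others (1.82 ± 0.30, SE, adjusted p = 0.0349 by the edgeR quasi-likelihood test). In clone 19, where Dnmt3l was lowest, Dazl stood at 44.1 CPM (19.9 to 112 over all clones), Tuba3a at 21.02 (8.98 to 75.6), Sohlh2 at 17.9 (10.0 to 79.6) and Stk31 at 17.3 (15.2 to 49.95), and Hormad1 at 23.1 (8.45 to 29.6). None of these 5 was highest in clone 19, while Brdt of the same list, too low to be tested, was at 2.48 CPM in clone 19 and 0.0628 to 1.61 in the others. Mael and Taf7l of this list, which were tested and did not pass, were lowest in clone 19. They stood there at 3.75 and 3.41 CPM, and reached at most 9.01 and 14.9 CPM over all clones. Median SD of the log2 level was 0.56 in the germline list, and 0.17 to 0.29 in the other pathway lists, beside 0.24 over all tested genes. These medians are not matched for abundance: the germline list summed to 356 CPM on average, and the other pathway lists to 952 to 5564 CPM. The part of abundance in this difference was not tested.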

How the data were processed

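The authors deposited raw read counts per gene in 1 table of 22369 mouse Ensembl IDs by 11 libraries. TopHat 1.4.0, Bowtie 0.12.7, mm9 and hg19 are named in the data processing field, per the submitters' processing notes. The counting method, with or without strand, and the handling of multiply aligned reads were not given in the sources used here. As stated per the labels' protocols, RNA was isolated with an RNeasy kit and libraries were made with a TruSeq RNA kit.

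Symbols were found for 20777 IDs. Exon lengths (union over coding transcripts) and the order of genes were read from GENCODE vM21, whose build, GRCm38, is newer than mm9. CPM used TMM library sizes (edgeR 4.0.16, R 4.3.3), and 12479 genes averaging 1 CPM or more were tested. The goodness-of-fit test compared a negative binomial fit of 1 common mean, with dispersion from the trend, to a chi-square distribution on 10 degrees of freedom. Clones were compared with the other 10 by edgeR's quasi-likelihood test. P-values were adjusted by Benjamini-Hochberg, over all genes or over all 137269 pairs of gene and clone. The SE of a fold change is derived from the F statistic. DESeq2 1.42.0 served for alternatives. Correlations were tested by permutation in Python 3.11.15 with NumPy 2.4.6. Segments were windows of 25 genes with a median shift beyond 0.36 on the log2 scale from the median clone. The fits were tested on simulated data.

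Nothing says that the libraries came from repeated cultures, so p-values measure the spread between these libraries. Floors and Poisson intervals cover counting error only. The genes and lists were chosen with earlier results of these data known. Genes named beside the 10 are the 3 most like and unlike each variable gene and, per list, the 3 most abundant and up to 4 variable members; 1 gene that this rule names is not reported here. Genes called in a single clone, the genes given beside Dnmt3l in clone 19 and the genes that varied among the markers were added after their values were seen.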

Additional observations from a re-analysis of the deposited data

How the results depend on the processing

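The count of 2 variable genes was 1 without clone 16, where Tet2 was lost, 1 without clones 19 and 26, where Dnmt3l was lost, and 10 against counting noise alone. Leaving out 1 clone at a time gave 1 to 3. No gene and clone pair was called (0 of 110 by edgeR, with 10 at an unadjusted p under 0.05), 3 were by the DESeq2 Wald test, and 0 to 1 when 1 clone was left out, the 1 being Dnmt3l in clone 19 without clone 26. The median log2 ratio of maintenance over de novo was -0.06 with the longest transcript, which turns its sign, 0.89 with CPM not divided by length, 1.78 as a mean of log2 levels and 2.85 without Dnmt3l. That of oxidising over de novo was 1.24 with CPM not divided by length, -1.09 with the longest transcript and 1.78 without Dnmt3l. That of oxidising over maintenance was 0.32 with CPM not divided by length and -2.57 as a mean of log2 levels. The r of Dnmt3l with Tet1 was -0.10 without clones 19 and 26. The longest-transcript length, the de novo class without Dnmt3l and the run without clones 19 and 26 were chosen after seeing the data. RLE size factors, no filter and a mean of at least 5 CPM left both counts at 2 and 0. With the genes of shifted segments left out the first was also 2, but these were Dnmt3l and Tet3, since Tet2 was itself left out. No paired analysis between groups of samples was possible because the clones form 1 group with 1 library each. With 1 library per clone, depth is not the limit for the abundant genes, but for Tet3, with 102 to 376 counts, counting error alone reached 6.33% of the level on average.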
